A study of Mus musculus with 8 samples.

Results

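The 4 Egr genes (Egr1, Egr2, Egr3 and Egr4) and the 2 genes of their Nab corepressors (Nab1 and Nab2) were followed in mouse brain by RNA sequencing. They were taken by symbol, 6 of 17983 symbols in the deposited tables, and the choice was made with earlier results of these data known. All 8 libraries came from male db/db mice, which lack a working leptin receptor and become obese and diabetic, so both groups carried this genotype. The 4 ketogenic libraries came from mice given a ketogenic diet, which is rich in fat and nearly free of carbohydrate, and the 4 control libraries from mice on a normal diet. Per the series description, the diets started at 9 weeks and lasted until the mice were 6 months old, and RNA came from the whole brain. Marker genes, given below, did not bear this out for the cerebellum. The labels do not say whether each library came from a separate animal. If any did not, the p-values measure only the spread between these libraries.

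Egr proteins are zinc-finger transcription factors that bind a GC-rich site. Neurons transcribe their genes as immediate early genes, within minutes of synaptic activity or growth factor signals, through MAP kinases, serum response factor (SRF) with its ternary complex partners, and the cAMP response element binding protein (CREB). Nab1 and Nab2 have no zinc fingers of this kind. They bind Egr proteins and repress Egr target genes, in part through the chromatin remodeller NuRD, and Egr factors can raise Nab2 transcription, which closes a negative feedback loop.

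Egr1, Egr2, Egr4 and Nab1 fell in ketogenic brains, and Egr3 and Nab2 did not pass the test. Egr2 was 2.13-fold lower, Egr1 1.78-fold, Egr4 1.38-fold and Nab1 1.23-fold. Genes were tested with edgeR's quasi-likelihood F test on the deposited counts, and passed at a Benjamini-Hochberg adjusted p under 0.05 over all 14895 genes tested. Of the 6 genes, 4 were lower, 0 were higher and 2 did not pass. Over all genes tested 6.52% passed, 3.22% lower and 3.3% higher. The log2 changes of the 6 genes were all below 0, with a median of -0.38, and the median over all genes tested was -0.0029. For 4 of the 6 genes all ketogenic libraries lay below all control libraries, which held for 6.51% of genes tested. In RNA from whole tissue, fewer cells of a type and less RNA per cell cannot be told apart.

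Total counts were 34450860 to 38738800 in control and 38163795 to 40233361 in ketogenic libraries. The 6 genes had between 259 counts (Egr2, ketogenic library 4) and 24364 counts (Egr1, control library 1) in a library. Earlier work on these data, whose values are not given here, found ketogenic libraries 3 and 4 apart from their group. The fit over all genes was therefore repeated without both. Of 12 cell type and 7 brain region marker lists, 1 had summed levels that did not overlap between the diets. The 5 erythrocyte markers summed to 15.3 to 52.4 counts-per-million (CPM) in control libraries and to 69.4 to 114 CPM in ketogenic libraries, with 4 of 5 higher. The neuron markers summed to 8814 to 9835 CPM with the control diet and 8203 to 9564 CPM with the ketogenic diet, with 0 of 8 past the threshold. Among astrocyte markers 4 of 6 were lower, with sums of 3718 to 4482 CPM and 3522 to 4068 CPM. Some region lists that overlapped spread more widely in the ketogenic group. Thalamus markers summed to 257 to 277 CPM in control and 145 to 308 CPM in ketogenic libraries, and hypothalamus markers to 41.7 to 50.3 and 25.3 to 117 CPM. Cerebral cortex markers summed to 539 to 588 and 436 to 667 CPM, while hippocampus markers spread less, from 273 to 340 and 285 to 314 CPM. The part of blood RNA, astrocyte RNA and region makeup in the results below was not tested. The label of whole brain was checked on 7 cerebellar markers, whose sum was 36.9 to 61.4 CPM in control and 24.4 to 45.7 CPM in the ketogenic group. Of these Gabra6 and Pcp2 had at most 5 and 17 counts in any library, and Cbln1 and Neurod1, which other regions also express, at most 1313 and 670. Cbln3, Barhl1 and En2 reached at most 56, 73 and 78 counts. Cerebellar RNA was therefore nearly absent from every library, and the label of whole brain was not borne out for the cerebellum. Why it was nearly absent was not tested.

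**Figure D1:**
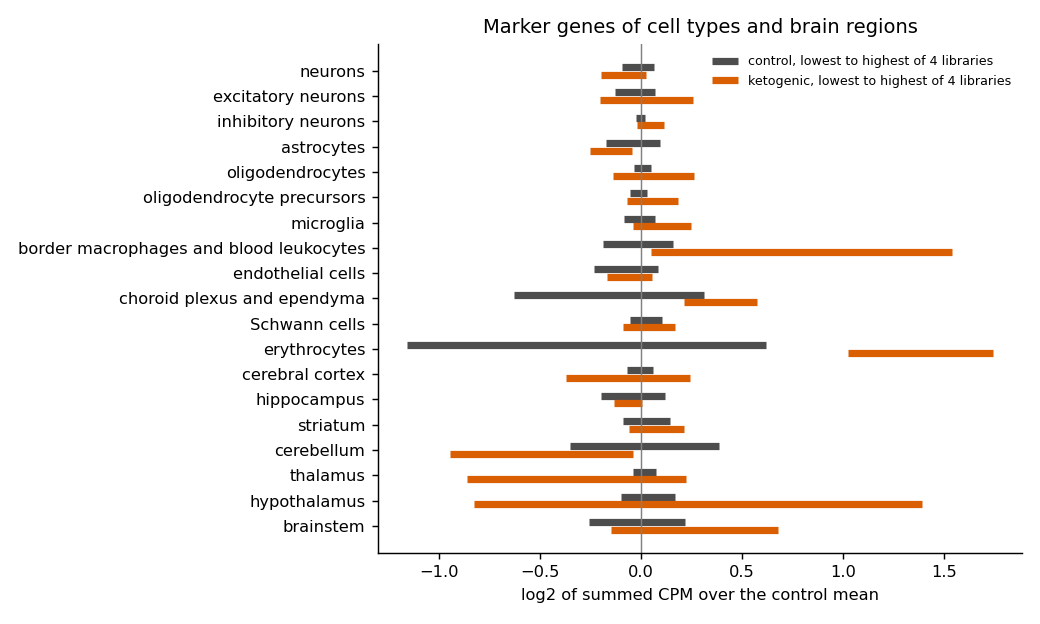
Range of the summed CPM of each marker list over the 4 control (grey) and 4 ketogenic (orange) libraries, as log2 of the sum over the control mean. The erythrocyte bars do not overlap, and the neuron, excitatory neuron, inhibitory neuron and cerebral cortex bars do.

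Egr1, the most abundant of the family and the factor most used as a marker of neuronal activity, lies on chromosome 18 at 34859823 to 34864984 (GRCm38, plus strand). CPM values, scaled between libraries by the trimmed mean of M values (TMM), were 717, 584, 507 and 507 in control libraries 1 to 4. They were 337, 332, 352 and 279 CPM in ketogenic libraries 1 to 4. Control library 1 was the highest, ketogenic library 4 the lowest, and the groups lay well apart. The control mean was 579 ± 98.9 CPM and the ketogenic mean 325 ± 32.1 CPM (SD, n = 4 each). The log2 change was -0.83 ± 0.10 (SE), with an adjusted p of 0.000814 by edgeR. Egr1 ranked 4 by p among the genes tested. When single libraries were left out the log2 change ran from -0.89 to -0.71, and Egr1 passed in 20 of 20 alternative analyses.

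**Figure D2:**
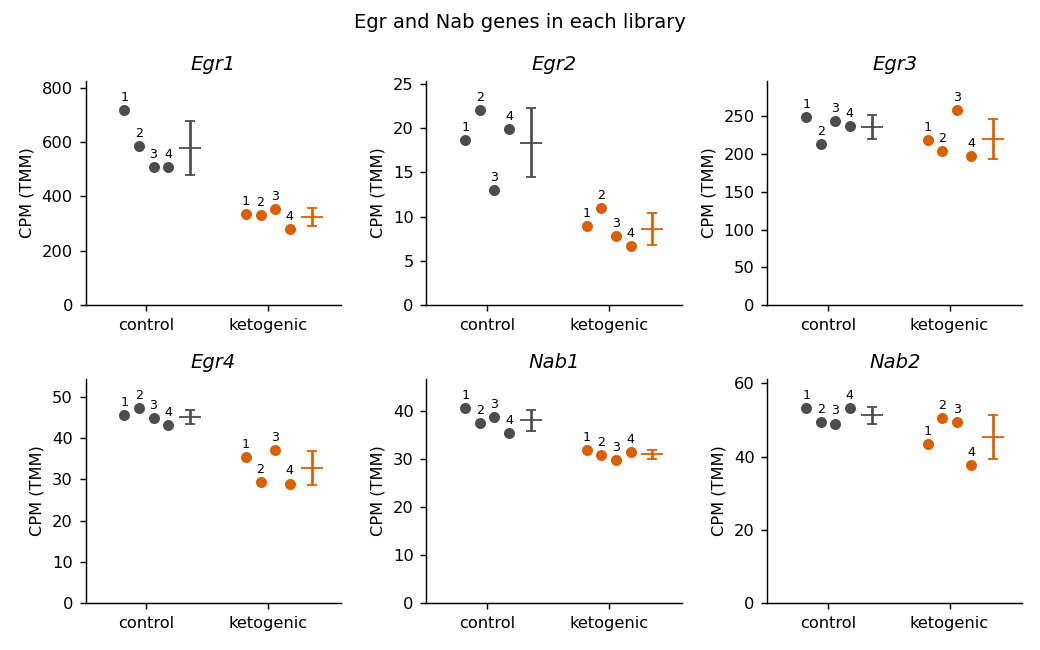
TMM-scaled CPM of each gene in every library, numbered by replicate, with the group mean and SD (n = 4) beside the points; each panel starts at 0 on its own scale. The groups are apart for Egr1, Egr2, Egr4 and Nab1, and overlap for Egr3 and Nab2.

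Egr3, an Egr factor that is needed for muscle spindles and works in synaptic plasticity, lies on chromosome 14 at 70077203 to 70082614 (plus strand). Its control libraries held 249, 213, 244 and 237 CPM, and its ketogenic libraries 219, 204, 258 and 198 CPM. The groups overlapped, since the highest value of all was ketogenic library 3 and control library 2 lay below ketogenic library 1. Means were 236 ± 16.2 and 220 ± 26.8 CPM (SD, n = 4 each). The log2 change was -0.10 ± 0.08 (SE), with an adjusted p of 0.445 by edgeR. Egr3 passed in 0 of 20 alternatives, with adjusted p from 0.0912 to 0.723, the lowest without ketogenic library 3, where its log2 change was -0.18.

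Egr2, also called Krox20, patterns the hindbrain and drives myelination in Schwann cells, and in the adult forebrain it is an immediate early gene. The gene lies on chromosome 10 at 67535475 to 67542188 (plus strand), and RefSeq lists 5 start sites for it. The 250 bases before 1 of these starts are shown because they hold motifs of SRF and CREB, the factors that carry activity signals to Egr genes (RefSeq, GRCm38.p6, chr10:67537619-67537868, plus strand, 5′ to 3′). Capitals mark a CArG box, the SRF site, at positions -72 to -63 from the start, and the short form of the CREB site (TGACG, or CGTCA on the other strand) at -111 to -107 and -55 to -51.
Egr2: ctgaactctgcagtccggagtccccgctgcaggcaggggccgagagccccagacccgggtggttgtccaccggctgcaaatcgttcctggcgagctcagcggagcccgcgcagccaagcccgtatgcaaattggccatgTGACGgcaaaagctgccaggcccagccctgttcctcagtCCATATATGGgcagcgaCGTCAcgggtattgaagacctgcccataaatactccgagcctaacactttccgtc
The CArG box reads CCATATATGG on both strands. Searched on both strands in 32851 RefSeq windows of 300 bases (250 before to 50 after a start), a CArG box was present in 1.63% and a short CREB site in 20.8%. Counted by gene, the shares were 1.81% and 23.0%. Of the other Egr2 starts, 67537566 had a CArG box and no short CREB site, and 67535499 had neither. The windows at 67537870 and 67537930 overlap the one shown and hold the same motifs. A match is a description of letters, not a measured site.

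Egr2 levels were 18.6, 22.0, 13.0 and 19.8 CPM in control libraries 1 to 4 and 8.96, 11.0, 7.81 and 6.64 CPM in ketogenic libraries 1 to 4. The lowest control library, library 3, stood above the highest ketogenic library, library 2. The means were 18.3 ± 3.86 and 8.59 ± 1.84 CPM (SD, n = 4 each), and the log2 change was -1.09 ± 0.16 (SE, edgeR adjusted p = 0.00374). It stayed between -1.23 and -0.99 with each library left out, and Egr2 passed in 20 of 20 alternatives.

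Egr4, an Egr factor of neurons and male germ cells, lies on chromosome 6 at 85511121 to 85513589 (minus strand). Its upstream sequence is shown for comparison with that of Egr2 (RefSeq, GRCm38.p6, chr6:85513590-85513839, minus strand, 5′ to 3′). Capitals mark short CREB sites, read as CGTCA, at positions -177 to -173 and -109 to -105 from the start.
Egr4: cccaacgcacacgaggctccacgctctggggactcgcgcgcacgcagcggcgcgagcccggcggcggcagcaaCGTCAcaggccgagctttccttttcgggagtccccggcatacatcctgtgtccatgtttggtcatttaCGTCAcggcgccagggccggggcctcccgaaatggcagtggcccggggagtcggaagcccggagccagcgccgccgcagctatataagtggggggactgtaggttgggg
The window held no match to the CArG box or to the Egr site GCGNGGGCG. Egr4 control libraries held 45.6, 47.3, 44.8 and 43.1 CPM and ketogenic libraries 35.5, 29.3, 37.0 and 29.0 CPM. Control values were close together, ketogenic libraries 2 and 4 lay below ketogenic libraries 1 and 3, and the groups did not overlap. Means of 45.2 ± 1.74 and 32.7 ± 4.16 CPM (SD, n = 4 each) gave a log2 change of -0.47 ± 0.08 (SE), with an adjusted p of 0.00782 by edgeR. Egr4 passed in 20 of 20 alternatives, with a log2 change between -0.53 and -0.41 when 1 library was left out.

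**Figure D3:**
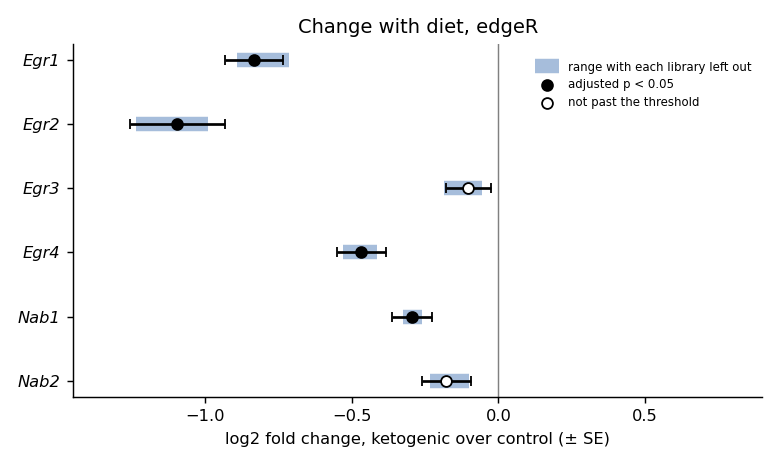
Log2 fold change of each gene, ketogenic over control, from edgeR with its SE; filled points passed at an adjusted p under 0.05, and blue bars give the range with each library left out. Egr2 and Egr1 lie furthest from 0, and the open points of Egr3 and Nab2 did not pass.

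Nab1, a corepressor that binds Egr proteins, lies on chromosome 1 at 52457294 to 52500679 (minus strand). The 300-base RefSeq window at its start held 3 Egr sites (GCGNGGGCG), at positions -141 to -133, -109 to -101 and -38 to -30 from the start. At least 1 Egr site was present in 5.55% of all windows and 3 or more in 0.195%. The 250 bases before this start were 80.8% G and C, and windows of similar GC content were not compared separately. The RefSeq start is at 52500448, so the 3 sites lie inside the gene bounds above, after the outermost GENCODE start at 52500679. The 3 stretches of 27 bases are shown with the Egr sites in capitals (RefSeq, GRCm38.p6, minus strand, 5′ to 3′), of which the first reads on the other strand and also ends in a short CREB site, CGTCA.
Nab1, chr1:52500567-52500593: cggcCGCCCACGCcgggatctgCGTCA
Nab1, chr1:52500535-52500561: ccgcGCGTGGGCGggagccggagcggc
Nab1, chr1:52500464-52500490: cgggGCGGGGGCGgcggaggtggcggg
No CArG box was found in this window, and binding was not measured in this study.

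Nab1 stood at 40.7, 37.4, 38.8 and 35.3 CPM in control and 31.9, 30.8, 29.8 and 31.6 CPM in ketogenic libraries. Ketogenic values were tightly grouped, and all lay below control library 4, the lowest control. From 38.1 ± 2.24 to 31.0 ± 0.918 CPM (SD, n = 4 each), the log2 change was -0.29 ± 0.07 (SE, edgeR adjusted p = 0.0225). Nab1 passed in 14 of 20 alternatives. The edgeR adjusted p was 0.0852 without control library 1, 0.0596 without control library 2, 0.0554 without control library 3 and 0.066 without ketogenic library 2. It was 0.144 without ketogenic libraries 3 and 4, and 0.0582 with a trend on GC content and gene length removed, while the log2 change stayed between -0.33 and -0.25 in all 20.

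Nab2, the corepressor gene that Egr factors can induce, lies on chromosome 10 at 127660918 to 127668568 (minus strand). Control libraries held 53.3, 49.6, 49.1 and 53.3 CPM and ketogenic libraries 43.5, 50.6, 49.6 and 37.8 CPM. Ketogenic libraries 2 and 3 lay within the control range, and ketogenic libraries 1 and 4 below it. The means of 51.3 ± 2.29 and 45.3 ± 5.92 CPM (SD, n = 4 each) gave a log2 change of -0.18 ± 0.08 (SE). By edgeR the p was 0.0477 before adjustment and 0.198 after it. Nab2 passed in 0 of 20 alternatives, and its RefSeq window held no match to the Egr site, CArG box, full CREB site (TGACGTCA) or short CREB site. Nab2 shares 40 bases with Stat6, 1668 bases with Nemp1 and 1646 bases with the antisense gene Gm16229, all on the opposite strand. Whether counting used strand is not given in the sources used here, so reads of the overlap could be shared. Neither Stat6 nor Nemp1 passed in edgeR (Stat6, log2 change -0.03, adjusted p = 0.888, and Nemp1, 0.26, adjusted p = 0.438). Gm16229 is not among the deposited symbols and could not be checked.

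Whether the genes differed from each other in how far they moved was tested on the ratio of each pair within a library, which does not depend on library scaling. For all 15 pairs an exact permutation test (two-sided) ran over the 70 ways to assign the libraries to diets, and the smallest p it can give is 0.0286. At that smallest p were 5 pairs, with an adjusted p of 0.0857, so 0 of 15 passed after Benjamini-Hochberg adjustment. In these 5 pairs the ratios did not overlap between the diets, and the test could give them no smaller p. With only 5 of 15 pairs at that p none could pass, so the result does not show that these genes moved alike. One of the 5 was Egr1 to Egr3, whose log2 ratio differed by -0.72 ± 0.13 between ketogenic and control libraries (SE, exact permutation p = 0.0286). The ratio of Egr2 to Nab2 differed by -0.91 ± 0.19, of Egr1 to Nab2 by -0.64 ± 0.12, of Egr1 to Nab1 by -0.53 ± 0.13 and of Egr3 to Egr4 by 0.37 ± 0.08 (SE), each with that exact permutation p. For Egr1 and Egr2 the difference was 0.27 ± 0.21 (SE, exact permutation p = 0.229), from 0.16 to 0.38 with 1 library left out and 0.02 on log2(FPKM + 1). For Nab1 and Nab2 it was -0.11 ± 0.13 (SE, exact permutation p = 0.429). The Egr3 to Nab2 ratio differed by 0.08 ± 0.10 (SE, exact permutation p = 0.429). Leaving out 1 library moved the Nab1 to Nab2 difference between -0.20, without ketogenic library 4, and -0.04, without ketogenic library 3. A difference in response between Nab1, which passed, and Nab2, which did not, was not shown.

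Levels of different genes were compared per length, in the deposited FPKM (fragments per kilobase and per-million). In control libraries Egr1 was highest at 188 ± 30.7 FPKM, followed by Egr3 at 56.9 ± 3.58, Egr4 at 21.0 ± 0.790, Nab2 at 19.9 ± 0.911, Nab1 at 7.35 ± 0.362 and Egr2 at 4.89 ± 1.05 FPKM (SD, n = 4 each). In ketogenic libraries Egr1 was at 106 ± 8.85, Egr3 at 53.1 ± 5.27, Nab2 at 17.6 ± 2.17, Egr4 at 15.2 ± 1.62, Nab1 at 6.02 ± 0.276 and Egr2 at 2.30 ± 0.507 FPKM (SD, n = 4 each). In mean FPKM Egr4 and Nab2 changed places, but this pair did not pass the ratio test above. Its log2 ratio differed by -0.29 ± 0.12 (SE, exact permutation p = 0.0571, adjusted p = 0.0857). Their control values overlapped, at 20.2 to 22.1 FPKM for Egr4 and 18.9 to 20.9 FPKM for Nab2, and so did the ranges of their ketogenic values. Nab2 stood above Egr4 within each ketogenic library, and also in control library 4, at 20.9 and 20.2 FPKM. The other neighbours in the order lay further apart than their SDs.

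The summed Egr level was 271 ± 31.7 FPKM in control, from 247 to 316, and 176 ± 14.2 FPKM in ketogenic libraries, from 157 to 191 (SD, n = 4 each). Of this sum Egr1 made up 69.1 ± 3.17% in control and 60.0 ± 1.65% in ketogenic libraries, and Egr3 21.2 ± 2.60% and 30.1 ± 1.58% (SD, n = 4 each). Egr4 held 7.83 ± 0.805% and 8.62 ± 0.550%, and Egr2 1.82 ± 0.402% and 1.30 ± 0.273%. Egr1 stood 2.80 to 3.87 times above Egr3 in control libraries and 1.84 to 2.19 times above it in ketogenic libraries, with no overlap. The summed Nab level was 27.2 ± 0.873 and 23.6 ± 2.02 FPKM, and the ratio of summed Egr to summed Nab was 9.93 ± 0.978 in control and 7.48 ± 0.499 in ketogenic libraries (SD, n = 4 each). This ratio was 9.00 to 11.2 in the control libraries and 6.80 to 7.87 in the ketogenic libraries. Sums and shares follow from the single genes above and were given no test.

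**Figure D4:**
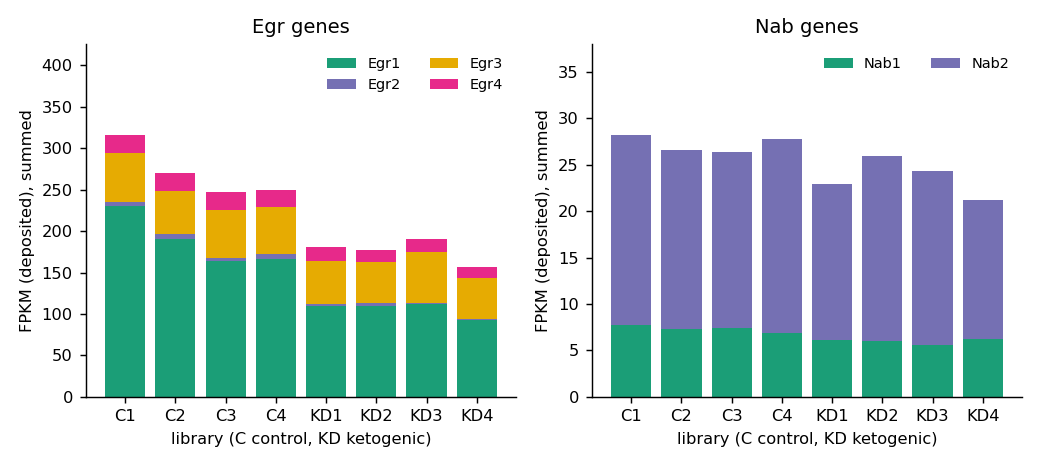
Deposited FPKM of the 4 Egr genes (left) and the 2 Nab genes (right), stacked for each library, C for control and KD for ketogenic. Every ketogenic Egr stack lies below every control stack, most of the difference is Egr1, and the Egr3 part is of similar height throughout.

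The genes that carry signals to the Egr promoters were counted against the 6.52% of all genes tested that passed, and levels of messenger RNA do not measure kinase activity. Among 18 genes of Ras and MAP kinase signalling, 1 was lower and 2 were higher, with a median log2 change of 0.02. At an unadjusted p under 0.05, which 24.6% of all genes tested reached, edgeR had 2 lower and 5 higher. At an adjusted p under 0.05 the DESeq2 Wald test called 1 lower and 4 higher, beside 1767 of all genes (870 lower). Sos1, an exchange factor that activates Ras, fell from 95.7 ± 4.89 to 81.1 ± 3.78 CPM (log2 change -0.24 ± 0.06, edgeR adjusted p = 0.0265). The kinase genes Rps6ka2 and Map2k2 rose, by 0.29 ± 0.06 (adjusted p = 0.0157) and 0.31 ± 0.07 (adjusted p = 0.0219) in log2 by edgeR. With the GC and length trend removed Sos1 changed by -0.12 (adjusted p = 0.264) and Map2k2 by 0.24 (adjusted p = 0.0913) in log2 by edgeR, which left 0 lower and 1 higher. Sos1 also did not pass in limma on log2 FPKM with either pseudocount. None of the list was higher and none lower without control library 1, without ketogenic library 2 or without ketogenic libraries 3 and 4, and 4 were higher without control library 4. Without control library 2 the counts were 0 lower and 1 higher, and without control library 3 they were 1 lower and 1 higher. Sos1 also did not pass without ketogenic library 3, where another gene of the list was lower and the counts were 1 lower and 2 higher.

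Among 17 genes of SRF, its partners and CREB, 1 was lower and 0 were higher, with a median log2 change of -0.04. At an unadjusted p under 0.05 edgeR had 4 lower and 1 higher of these 17, beside 24.6% of all genes tested. At an adjusted p under 0.05 the DESeq2 Wald test called 1 lower and 0 higher, beside 1767 of all genes. Creb1, the gene of CREB itself, fell from 62.8 ± 1.36 to 49.8 ± 4.34 CPM (log2 change -0.33 ± 0.07, edgeR adjusted p = 0.0137), and no longer passed without ketogenic libraries 3 and 4 or once the GC and length trends were removed. Without control library 4 or ketogenic library 3, 2 genes of this list were lower. Srf had 63.1 ± 6.59 CPM with the control and 57.2 ± 4.35 CPM with the ketogenic diet (log2 change -0.14 ± 0.08, edgeR adjusted p = 0.273).

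Among 14 genes of NuRD, the complex that Nab proteins recruit, 0 were lower and 0 higher by edgeR, with a median log2 change of 0.06. The DESeq2 Wald test, by which 1767 of all genes passed at an adjusted p under 0.05, called 1 lower and 1 higher. At an unadjusted p under 0.05 edgeR had 1 lower and 1 higher of the 14, beside 24.6% of all genes. Without control library 4, where 1900 genes passed, it called 2 lower and 1 higher. Chd4, the NuRD subunit that Nab2 binds, held 257 ± 1.84 and 273 ± 5.28 CPM (log2 change 0.09 ± 0.05, edgeR adjusted p = 0.258).

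Of 19 genes described as Egr targets, 2 were lower and 0 higher, with a median log2 change of -0.05. At an unadjusted p under 0.05 edgeR had 4 lower and 0 higher of the 19, beside 24.6% of all genes. At an adjusted p under 0.05 the DESeq2 Wald test called 2 lower and 0 higher, beside 1767 of all genes. Arc, a synaptic immediate early gene, fell from 271 ± 35.5 to 164 ± 34.6 CPM (log2 change -0.73 ± 0.12, edgeR adjusted p = 0.00596) and passed in all 20 alternatives. Syn1, which encodes the synaptic vesicle protein synapsin I, fell from 1065 ± 107 to 863 ± 67.0 CPM (log2 change -0.30 ± 0.07, edgeR adjusted p = 0.0248). Syn1 did not pass without control library 1, 2 or 3, without ketogenic library 2 or 4, or without ketogenic libraries 3 and 4 together, with an edgeR adjusted p of up to 0.0879. The other 17 listed targets did not pass.

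Of 32 tested immediate early genes outside the Egr family, 17 were lower and 0 higher, with a median log2 change of -0.32. Without the 3 that are also in the Egr target list, 16 of 29 were lower. At an unadjusted p under 0.05 edgeR had 20 of the 32 lower and 1 higher, beside 24.6% of all genes. At an adjusted p under 0.05 the DESeq2 Wald test called 17 lower and 0 higher, beside 1767 of all genes (870 lower). The AP-1 subunit gene Fos went from 60.8 ± 7.28 to 29.5 ± 3.38 CPM, close in size to Egr2 (log2 change -1.04 ± 0.09, edgeR adjusted p = 8.34e-05). The nuclear receptor gene Nr4a1 fell by 0.81 ± 0.09 and Nr4a3 by 0.76 ± 0.09 in log2, close in size to Egr1 (edgeR adjusted p = 0.0006 and 0.000814). Fosb, another AP-1 subunit gene, and Dusp1, a MAP kinase phosphatase gene, fell by 0.65 ± 0.09 and 0.60 ± 0.08 in log2 (edgeR adjusted p = 0.00242 and 0.00245). The count of lower genes was 10 without control library 1, control library 2 or ketogenic library 2, where 76, 106 and 94 of all genes were lower. It was 7 without ketogenic libraries 3 and 4, where 51 of all genes were lower, and 1 gene was higher without control library 4. In limma on log2 FPKM it was 11 with a pseudocount of 1 (203 of all genes lower) and 12 with 0.1 (229 lower). The 5 genes named here passed in all 20 alternatives.

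**Figure D5:**
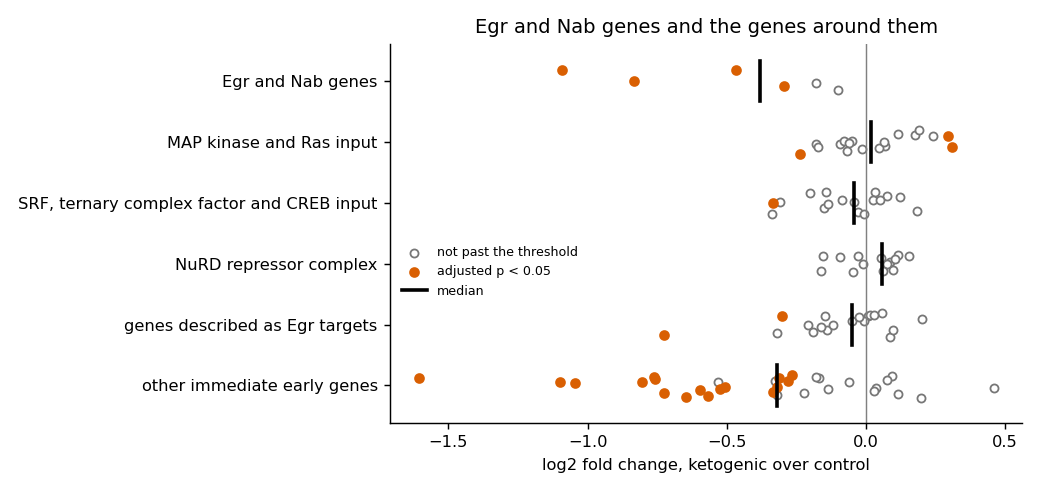
Log2 fold change, ketogenic over control, of the 6 Egr and Nab genes and of the genes of 5 lists around them; filled points passed in edgeR at an adjusted p under 0.05 and black bars are medians. The medians of the signalling, NuRD and target lists lie near 0, and those of the Egr and Nab genes and of the other immediate early genes below it.

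The genes whose profile over the 8 libraries was most like that of each gene that fell were taken from 13279 genes with a mean of at least 1 CPM. Likeness was the root mean square difference of log2 CPM after each profile was centred. For Egr1 these were Nr4a1 (0.0949), Nr4a3 (0.119) and Fosb (0.136), and for Egr2 Fos (0.185), the activity-dependent transcription factor gene Npas4 (0.260) and Nr4a3 (0.281). All 3 were immediate early genes in both cases. For Egr4 they were the monocarboxylate transporter gene Slc16a7 (0.0496), the neuronal gene repressor Rest (0.0711) and Dnajc28 (0.0745), none of them in the immediate early list. For Nab1 they were Taf9b (0.0248), Cmtm5 (0.0266) and Abce1 (0.0329). All the points share the same 8 libraries and the diet difference, so likeness is a description. Small differences are easier to reach for genes that vary little, such as Egr4 and Nab1, and the 4 sets are not comparable in size of difference.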

How the data were processed

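The authors deposited raw counts per gene symbol and FPKM values for 8 libraries of male db/db brain, per the file headers and labels. The submitters' processing notes name the builds GRCm38 and mm10, and the labels' protocols give 1.3 ug of total RNA and a SMARTer mRNA kit. Not given in the sources used here are the aligner, counting program, strand setting and annotation. The deposited FPKM equalled count over gene length and column total (largest relative spread 1.79e-07), so they add only the lengths to the counts.

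Counts of all 17983 symbols entered edgeR 4.0.16 (TMM factors, filterByExpr with a minimum count of 10, quasi-likelihood F test on an intercept and diet, Benjamini-Hochberg adjustment, threshold 0.05), which left 3088 genes out and kept all 6 Egr and Nab genes. An SE is the log2 change over the square root of F. Alternatives were DESeq2 1.42.0 size factors and Wald test, other scalings and filters, limma 3.58.1 (voom and log2 FPKM with a pseudocount of 1 or 0.1), a replicate block, loess removal (span 0.3) of GC content and length trends, and libraries left out. The fit was tested on simulated counts. Pair ratios were compared with scipy 1.17.1.

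The Egr and Nab genes, gene lists, markers and tests were chosen with earlier results of these data known. Named genes were the 6 genes, up to 5 genes past the threshold with the smallest p in each list, the reference genes Arc, Fos, Srf, Chd4 and Nr4a1, and the 3 most similar profiles (predicted symbols skipped). Leaving out ketogenic libraries 3 and 4 together, and the early gene list without Egr targets, were chosen after seeing the data. Positions are GENCODE M21 gene bounds, not necessarily those the counts were made with. RefSeq promoter windows (GRCm38.p6) were matched by symbol for 4 of the 6 genes, Egr2, Egr4, Nab1 and Nab2. Exons and UTRs were not counted separately.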

Additional observations from a re-analysis of the deposited data

Results flagged for a closer look

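In 5 of 86 groups of 4 libraries checked, 1 library stood apart from the other 3 by Dixon's test, which flags about 5% of groups by chance. For the Egr and Nab genes these were ratios. The log2 ratio of Egr1 to Egr4 was 3.50 in ketogenic library 2 and 3.25 to 3.26 in the other ketogenic libraries. The log2 ratio of Egr3 to Nab2 was 2.02 in ketogenic library 2 and 2.33 to 2.39 in the others. The log2 ratio of Egr3 to Egr4 was 2.17 in control library 2, where Egr3 had its lowest and Egr4 its highest control level, and 2.45 to 2.46 in the other control libraries. Of the marker lists, the log2 summed CPM of endothelial cells was 7.33 in control library 3 and 7.61 to 7.65 in the other controls. That of the brainstem was 3.55 in ketogenic library 4 and 2.73 to 2.87 in the other ketogenic libraries. None of the 6 genes had a library that stood apart in its own level.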

How the results depend on the processing

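Egr1, Egr2 and Egr4 were lower and past the threshold in all 20 alternatives, and Egr3 and Nab2 past it in none. The Nab1 log2 change passed in 14. Removing the GC and length trends gave -0.26, and it was -0.28 without ketogenic libraries 3 and 4, and -0.33 to -0.26 with 1 library left out, past the threshold in 4 of 8. The number of the 6 genes that passed was 3 or 4 in each alternative. The count over all genes, 971 (480 lower), moved more. It was 1767 (870 lower) with the DESeq2 Wald test, 489 (203 lower) with limma on log2(FPKM + 1), 560 (229 lower) on log2(FPKM + 0.1), 312 (158 lower) after the GC and length trends were removed and 90 (51 lower) without ketogenic libraries 3 and 4. With each library left out it ran from 146, without control library 1, to 1900, without control library 4 (76 to 962 lower). The cause was not tested. The labels give both diets the same replicate numbers, but same-numbered libraries deviated together by r = 0.0218 to 0.0759 only, so the numbers were not taken as pairs. With the replicate block 1528 genes passed (782 lower), among them 4 of the 6. For the ratios between the 6 genes, 0 of 15 pairs passed with all libraries, in CPM or on log2(FPKM + 1), and with a library left out only the difference was computed, with no test. The smallest p that the permutation test can give limits this count.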
